A study of Mus musculus with 24 samples.

Results

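RAW264.7 cells, a mouse macrophage line, were stimulated for 2 h with R848 and compared with cells left untreated for the same 2 h. The comparison takes 4 of the series' 24 Illumina BeadChip arrays, 2 replicates (A and B) of each group, chosen by the treatment and time in the labels. R848 (resiquimod), an imidazoquinoline that activates TLR7, was given at 1 μM, and the untreated cells received no ligand. At the same time the study stimulated cells with P3C (Pam3CSK4), a lipopeptide ligand of TLR2, at 1 μM and with LPS, a ligand of TLR4, at 100 ng/ml, and it sampled every treatment at 1, 2 and 4 h, so the R848 and untreated arrays of 1 and 4 h and the P3C and LPS arrays of 2 h serve here as points of comparison. All groups come from 1 cell line grown in serum-containing medium, and the methods describe each pair as biological duplicates.

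TLR7 sits in endosomes, where it is delivered by the chaperone UNC93B1 and binds single-stranded RNA or small imidazoquinolines. It signals through the adaptor MyD88, the IRAK kinases and TRAF6 to NF-κB and the MAP kinases, which switch on cytokine and chemokine genes together with the inhibitors that later shut the pathway down. TLR2 also signals through MyD88, whereas TLR4 uses MyD88 and TRIF, and TRIF is the adaptor that leads from TLR4 to interferon-β and the interferon-stimulated genes.

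Levels are log2 quantile-normalized signals, and differences are log2 differences of group means, R848 minus untreated unless another pair is named, with their standard error (SE). A gene was called at a limma adjusted p under 0.05 over the 8622 genes detected, the spread being pooled over all 12 groups. The 24 arrays had 12299 to 13917 probes above background. Of 10 macrophage markers, 8 were above background on all 4 arrays of the comparison and the other two, Itgam and Fcgr1, on 3 of 4, whereas none of the T cell, B cell, fibroblast, epithelial and dendritic cell markers on the array (1 or 2 of each) was above background on any of the 4. R848 and untreated arrays of 2 h never lay on the same slide, so no value within a slide could be had for this comparison. On these 4 arrays a difference between slides and an effect of R848 cannot be told apart.

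At 2 h, 567 genes were called between R848 and untreated cells. Of the 8622 genes, 288 (3.34%) were higher and 279 (3.24%) lower in R848 cells than in untreated cells. The rises were the larger changes: 98 genes rose over 2-fold and 22 over 4-fold, while 19 fell over 2-fold and 2 over 4-fold. Over the called genes the median size of a change was 0.82 for the rises and 0.52 for the falls, and over all genes the median difference was -0.01. At an unadjusted p under 0.05 there were 1571 genes. No called gene had overlapping groups, but with 2 arrays a group that also held for 38.1% of all genes tested. The count of falls rested on single arrays to a large extent, being 144 without R848 replicate A, 182 without untreated replicate A and 185 without untreated replicate B. Median scaling in place of quantile normalization, which shifted the median of all genes to -0.12, left 42 rises and 52 falls, a spread taken from only the 4 arrays compared left 57 and 8, and untreated arrays of all times pooled gave 469 and 638. Slides as random blocks, with a consensus correlation of 0.602 within slides, gave 407 rises and 414 falls.

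**Figure D1:**
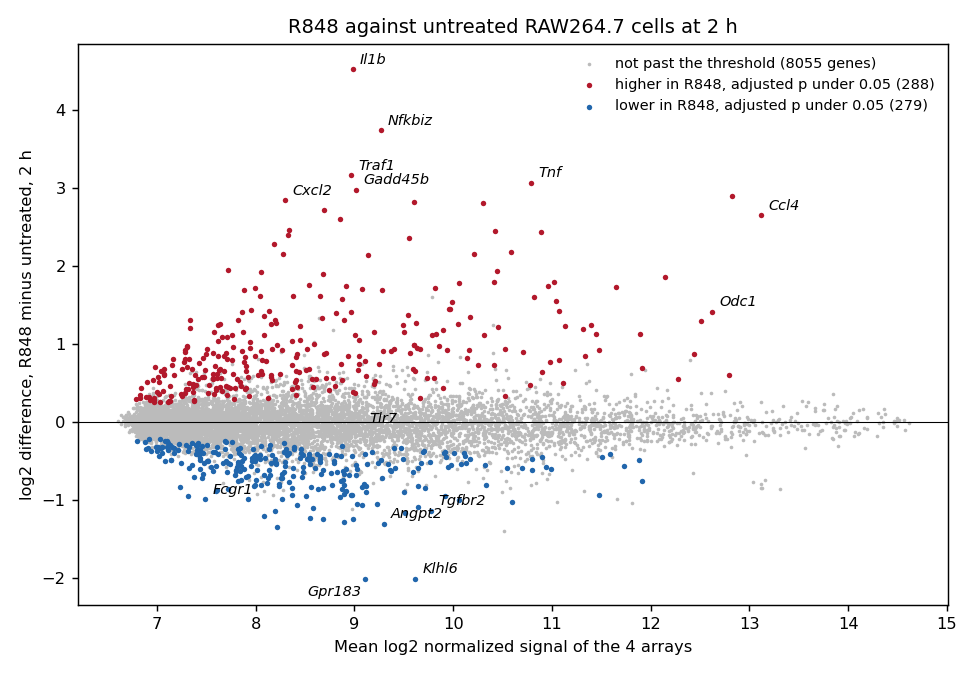
Difference between R848 and untreated cells at 2 h (y axis, log2, R848 minus untreated) against the mean log2 signal of the 4 arrays (x axis), 1 point a gene. The 288 called rises (red) reach 4.53 for Il1b, and the 279 called falls (blue) reach -2.01 for Gpr183 and Klhl6; Tlr7 lies among the grey genes that did not pass the test.

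The receptor gene Tlr7 and the genes Myd88 and Unc93b1 did not pass the test, while some other members of the TLR7 pathway list did. Tlr7 itself had signals of 9.06 and 9.01 in R848 cells, against 9.10 and 9.14 in untreated cells (difference -0.08, adjusted p = 0.68). Myd88 (-0.04) and the TLR7 chaperone Unc93b1 (0.20) also lay below the threshold, as did the kinase gene Irak1 (0.06) and the ubiquitin ligase gene Traf6 (0.08). Of the 28 tested genes of the TLR7 pathway list, 6 were called higher and 3 lower, with a list median of 0.15. Beside TLR7 adaptors and kinases, the list was drawn up with Tlr2, Tlr4, Cd180, Ly86, Traf1 and Traf2. Its counts are therefore not of the TLR7 pathway alone.

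Traf1, an adaptor of the TNF receptor family that NF-κB induces, stood at the top of that list. It had 10.79 and 10.31 in R848 cells, against 7.27 and 7.48 in untreated cells, which is 9.01-fold (difference 3.17 ± 0.17 SE, adjusted p = 2.8e-08). Slc15a3, an endolysosomal transporter of histidine and peptides, rose by 1.25 ± 0.11, and the MyD88-linked kinase gene Irak2 by 0.87 ± 0.10. The kinase genes Ikbke (0.80) and Map3k8 (0.50) and the receptor gene Tlr2 (0.87) were the other rises, but the call for Tlr2 was lost without R848 replicate A or untreated replicate B.

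The falls in this list took in another Toll-like receptor. Tlr4 had 7.57 and 7.57 in R848 cells, against 8.36 and 8.41 in untreated cells (difference -0.82 ± 0.08 SE, adjusted p = 1.42e-05). Slc15a4, an endolysosomal transporter that TLR7 signalling needs, fell by 0.42, and Tab1, a partner of the kinase TAK1, by 0.72, the call for Tab1 being lost without R848 replicate A or untreated replicate A. Within each pair of relatives at 2 h, Tlr4 and Slc15a4 were lower while Tlr2 and Slc15a3 were higher.

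Of the 17 tested NF-κB subunits, inhibitors and feedback genes, 12 were called higher and none lower, and the list median was 0.87. The 5 members not called lay between -0.41 (Cyld, a deubiquitinase gene) and 0.48 (Tnfaip3). Nfkbiz, which codes for the nuclear IκB protein that co-activates secondary response genes, had 11.08 and 11.19 in R848 cells, against 7.20 and 7.59 in untreated cells, a 13.4-fold difference (3.74 ± 0.13 SE, adjusted p = 1.08e-10). Tnfaip2, a TNF-induced gene, rose by 2.45 ± 0.24. Tnip1, a partner of the deubiquitinase A20, rose by 1.80 ± 0.33, a call lost without R848 replicate A.

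Nfkbia, the gene of the classical inhibitor IκBα, had 11.84 and 11.80 in R848 cells, against 10.21 and 10.32 in untreated cells (1.56 ± 0.12 SE, adjusted p = 7.23e-07). The other inhibitor genes Nfkbid (1.45), Nfkbie (0.89), Bcl3 (0.87) and Nfkbib (0.34) rose too. The subunit genes Relb (0.96), Rel (0.93), Nfkb1 (0.75) and Rela (0.43) were also higher. Tnfaip3, which codes for A20, did not pass the test (0.48, adjusted p = 0.059). The calls for Nfkbie, Bcl3, Relb, Rela and Nfkbib were each lost when at least 1 of the 4 arrays was left out.

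Promoters of 3 genes that rose in R848 cells are shown because they hold a match to the κB consensus, the sequence that NF-κB dimers bind. Each run is the 250 bases before the RefSeq start (GRCm38.p6), 5′ to 3′ on the gene's own strand, with the match in capitals. The windows are Cxcl2 at chr5:90903649-90903898 (plus strand), Nfkbia at chr12:55492648-55492897 (minus strand) and Tnip1 at chr11:54962941-54963190 (minus strand).
Cxcl2: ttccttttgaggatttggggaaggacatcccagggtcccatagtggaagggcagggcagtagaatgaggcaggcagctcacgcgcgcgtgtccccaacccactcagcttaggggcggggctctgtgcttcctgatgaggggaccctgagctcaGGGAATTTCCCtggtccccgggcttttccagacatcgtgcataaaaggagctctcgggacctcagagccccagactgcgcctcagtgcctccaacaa
Nfkbia: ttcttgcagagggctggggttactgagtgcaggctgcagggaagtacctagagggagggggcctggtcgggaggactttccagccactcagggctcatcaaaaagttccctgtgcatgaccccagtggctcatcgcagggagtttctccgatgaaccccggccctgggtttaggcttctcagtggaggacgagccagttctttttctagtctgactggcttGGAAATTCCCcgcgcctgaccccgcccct
Tnip1: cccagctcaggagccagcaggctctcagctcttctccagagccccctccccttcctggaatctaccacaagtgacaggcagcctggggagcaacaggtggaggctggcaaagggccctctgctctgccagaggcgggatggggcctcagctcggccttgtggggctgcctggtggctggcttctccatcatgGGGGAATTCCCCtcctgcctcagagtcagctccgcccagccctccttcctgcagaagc
The matches lie 87 to 97 bases before the start in Cxcl2 (2 overlapping matches), 20 to 29 in Nfkbia and 47 to 58 in Tnip1 (3 overlapping matches). Both strands were searched, and 3.9% of the 32851 RefSeq promoter windows searched hold a match. Of the called rises with a promoter in the table, 30 of 217 (13.8%) had one, against 13 of 222 called falls (5.86%) and 358 of 6577 genes tested (5.44%). A match describes letters and is not a measured binding site.

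Cytokine genes held the largest rise of the comparison. Il1b, the gene of interleukin-1β, had 11.28 and 11.21 in R848 cells, against 6.71 and 6.73 in untreated cells, where it was not above background on either array. It was therefore at least 20.2-fold higher (fitted difference 4.53 ± 0.18 SE, adjusted p = 6.48e-10). Folds of this kind are set against the lowest level called above background on each untreated array. Its relative Il1a, at 8.62 and 8.78 in R848 cells against 6.72 and 6.76 in untreated cells, was at least 3.47-fold higher on the same terms. Tnf, the gene of the cytokine that drives much of the acute macrophage response, had 12.46 and 12.19 in R848 cells, against 8.91 and 9.59 in untreated cells, an 8.41-fold difference (3.07 ± 0.20 SE, adjusted p = 1.12e-07).

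In all, 13 of 30 tested cytokine and growth factor genes were called higher and none lower, with a median of 0.31. Pdgfb, a growth factor for mesenchymal cells, rose by 2.45 ± 0.30, and Il1rn, the secreted antagonist of the interleukin-1 receptor, by 2.18 ± 0.28. Il6, a cytokine that macrophages make late, was not above background in either group at 2 h.

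Of 12 tested chemokine genes, 8 were called higher and none lower, and the median of 1.11 was the highest of the 18 lists. Ccl3 and Ccl4, chemokines that recruit monocytes and T cells, were already abundant without ligand. Ccl3 had 14.18 and 14.36 in R848 cells, against 10.90 and 11.84 in untreated cells (2.90 ± 0.23 SE, adjusted p = 9.75e-07). Ccl4 had 14.39 and 14.50 in R848 cells, against 11.53 and 12.04 in untreated cells (2.66 ± 0.14 SE, adjusted p = 2.33e-08).

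Cxcl2, which attracts neutrophils, had 9.25 and 10.20 in R848 cells, against 6.71 and 7.04 in untreated cells (2.85 ± 0.27 SE, adjusted p = 6.32e-06). Its replicates lay further apart than those of Ccl4, but both R848 arrays stood above both untreated ones. Ccl5, a T cell attractant, rose by 1.72 ± 0.20. Cxcl10, an interferon-responsive chemokine, rose by 1.05 ± 0.25 on its brightest probe, a call lost without untreated replicate A or R848 replicate B. The call was also lost when the detected probes of each gene were averaged.

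**Figure D2:**
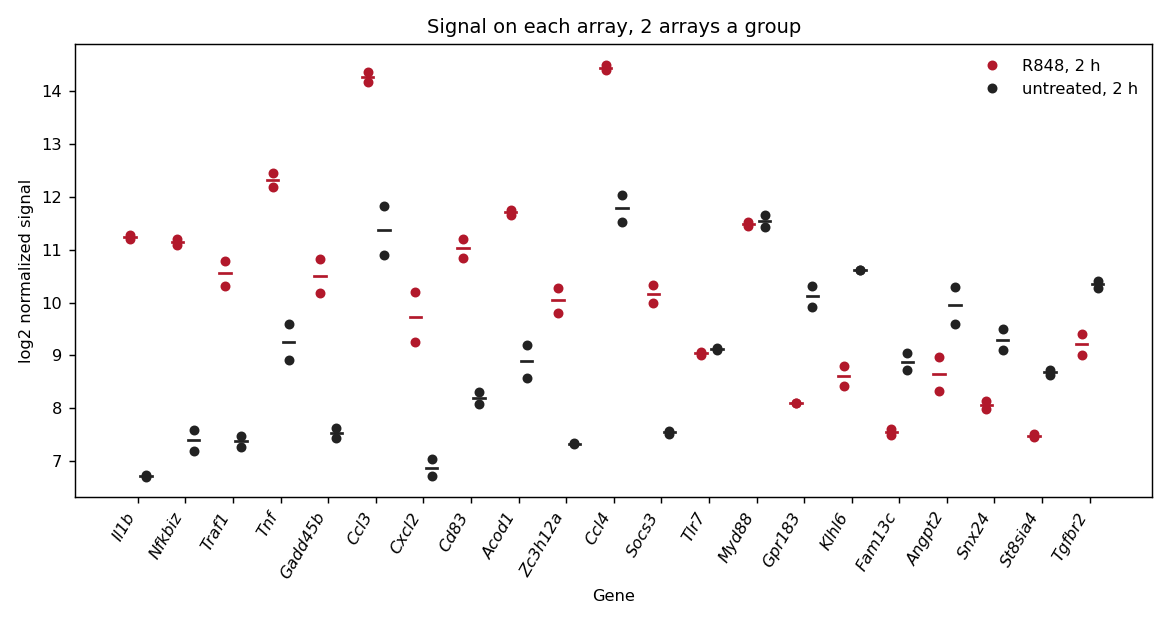
Log2 normalized signal (y axis) of 21 genes on each array at 2 h, R848 in red on the left and untreated in black on the right of each gene, with a bar at the mean of the 2 arrays. The groups lie apart for the genes that rose (left) and fell (right), while Tlr7 and Myd88 in the middle lie together.

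Some genes that limit the response rose beside those that carry it. Zc3h12a, which codes for the ribonuclease Regnase-1 that degrades inflammatory mRNAs, had 10.28 and 9.81 in R848 cells, against 7.32 and 7.34 in untreated cells (2.72 ± 0.20 SE, adjusted p = 4e-07). Socs3, an inhibitor of cytokine receptor signalling, had 9.98 and 10.33 in R848 cells, against 7.51 and 7.57 in untreated cells (2.61 ± 0.24 SE, adjusted p = 5.04e-06). The RNA decay and SOCS list had 6 of 18 members called higher and none lower, at a median of 0.19. Zfp36, which codes for the mRNA decay factor tristetraprolin, had 9.80 and 9.71 in R848 cells, against 8.70 and 9.36 in untreated cells, and did not pass the test (0.72, adjusted p = 0.055).

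Of 15 MAP kinase phosphatase and sprouty genes, 4 were called higher and none lower, and the list median was 0.09. All 4 were dual-specificity phosphatases, which remove phosphate from MAP kinases: Dusp2 (1.62 ± 0.14), Dusp4 (0.99), Dusp1 (0.87) and Dusp16 (0.66). The remaining 11 members did not pass the test.

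Immediate-early transcription factors split in direction at this time. Of 30 tested, 10 were called higher and 2 lower, with a median of 0.21. Egr3, a zinc finger factor, rose by 1.76 ± 0.17, Junb, an AP-1 subunit, by 1.74 ± 0.31 and Ets2, an effector of MAP kinase signalling, by 1.73 ± 0.12. The 2 falls, named here after their values were seen, were the AP-1 genes Fos and Jun. Fos had 8.61 and 8.39 in R848 cells, against 9.60 and 9.27 in untreated cells (-0.93 ± 0.15 SE, adjusted p = 0.00122). Jun had 6.92 and 7.04 in R848 cells, against 7.40 and 7.61 in untreated cells (-0.53 ± 0.11 SE, adjusted p = 0.00665). Its value on R848 replicate A lay under the lowest level called above background on that array (6.933), so the size of its fall is uncertain. Egr1, the best-known gene of this class, did not pass the test, at 9.14 and 9.30 in R848 cells and 9.13 and 9.50 in untreated cells.

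Among surface molecules of activated macrophages, 9 of 27 were called higher and 1 lower (median 0.27). Cd83, a marker of mature antigen-presenting cells, had 11.21 and 10.84 in R848 cells, against 8.08 and 8.30 in untreated cells (2.83 ± 0.20 SE, adjusted p = 2.77e-07). Cd40, the receptor for T cell help, rose by 2.40 ± 0.16 on its brightest probe. Of its 5 detected probes the 2 brightest were called, at 2.40 and 1.91, and the other three lay between 0.06 and 0.19. Clec4e, the receptor Mincle for mycobacterial glycolipids, rose by 1.94 ± 0.21. Itga5, the fibronectin receptor subunit, had 11.13 and 9.30 in R848 cells, against 8.28 and 7.85 in untreated cells, and its call was lost without R848 replicate A or either untreated array.

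Among effector enzymes, 9 of 26 were called higher and 1 lower (median 0.19). Acod1, which makes the antimicrobial metabolite itaconate, had 11.66 and 11.75 in R848 cells, against 8.58 and 9.21 in untreated cells, a 7.04-fold difference (2.81 ± 0.18 SE, adjusted p = 1.12e-07). Odc1, the entry enzyme of polyamine synthesis, rose by 1.42 ± 0.09 on a high basal level of 11.90 and 11.93. Nos2, inducible nitric oxide synthase, was not above background in either group, and Ptgs2, the inducible cyclooxygenase, was not above background on both arrays of any group of the series.

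Of the other genes the study names, Marcksl1, an actin-regulating substrate of protein kinase C, had 11.70 and 10.87 in R848 cells, against 9.19 and 9.06 in untreated cells (2.16 ± 0.35 SE, adjusted p = 0.000905). Sod2, mitochondrial superoxide dismutase, rose by 0.56 ± 0.10. The adhesion receptor gene Cd44 (0.57, adjusted p = 0.06), the complement gene C3 (0.14), the lysozyme gene Lyz2 (-0.13), Ly86 (-0.50), the tetraspanin gene Cd81 (-0.32) and Stat3 (-0.08) did not pass the test.

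The apoptosis and survival list had 10 of 32 members called higher and 4 lower, at a median of 0.16. Gadd45b, a stress-response gene induced by NF-κB, had 10.83 and 10.18 in R848 cells, against 7.62 and 7.43 in untreated cells (2.98 ± 0.24 SE, adjusted p = 9.09e-07), and its relative Gadd45a rose by 2.15 ± 0.13. Bcl2a1d, an anti-apoptotic BCL2 family gene, rose by 1.80 ± 0.23, although its near-identical copies may share the probe. Bcl2l11, which codes for the pro-apoptotic protein BIM, rose by 1.11 ± 0.12 in the same cells.

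**Figure D3:**
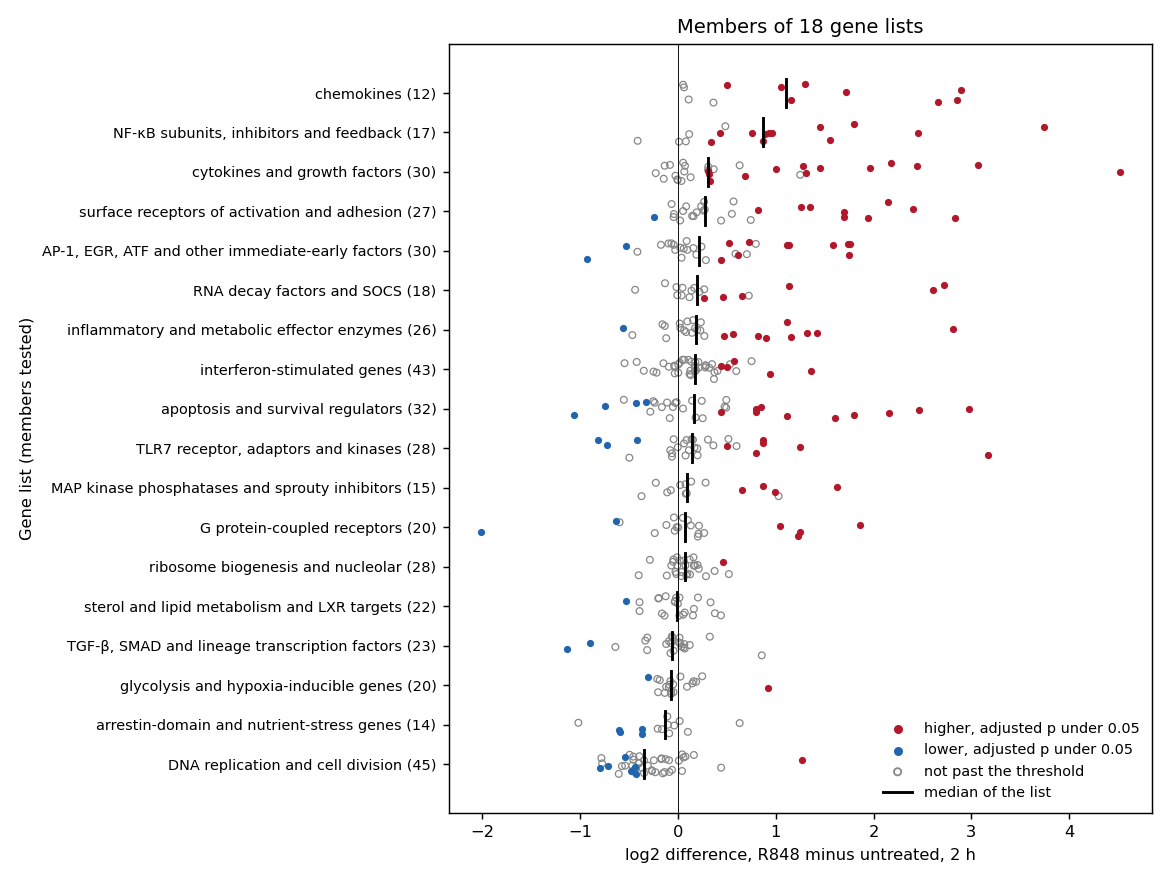
Difference between R848 and untreated cells at 2 h (x axis, log2) for each tested member of 18 gene lists (y axis, number of tested members in brackets), red for called rises, blue for called falls, open grey for the rest, and a bar at the list median. Chemokines and NF-κB genes have the highest medians (1.11 and 0.87), and DNA replication and cell division the lowest (-0.35).

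The largest falls were in a receptor for oxysterols and in a ubiquitin ligase adaptor. Gpr183, which codes for the receptor EBI2 that guides immune cells along oxysterol gradients, had 8.10 and 8.11 in R848 cells, against 10.32 and 9.91 in untreated cells, 4.04-fold lower (-2.01 ± 0.11 SE, adjusted p = 3.27e-08). Klhl6, which codes for a kelch protein of cullin ubiquitin ligases, had 8.42 and 8.80 in R848 cells, against 10.61 and 10.62 in untreated cells, 4.03-fold lower (-2.01 ± 0.18 SE, adjusted p = 2.24e-06). These were the only 2 genes that fell over 4-fold.

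The next falls were of 1.14 to 1.34. They took in Fam13c (-1.34 ± 0.14), the vascular ligand gene Angpt2 (-1.30 ± 0.30), the small GTPase gene Arl11 (-1.28 ± 0.29), the sorting nexin gene Snx24 (-1.25 ± 0.14), the lysosomal adaptor gene Plekhm1 (-1.25 ± 0.26) and the polysialyltransferase gene St8sia4 (-1.20 ± 0.16). The calls for Angpt2, Arl11 and Plekhm1 were each lost when R848 replicate A or an untreated array was left out.

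Both chains of the TGF-β receptor fell. Tgfbr2 had 9.41 and 9.01 in R848 cells, against 10.41 and 10.28 in untreated cells (-1.14 ± 0.17 SE, adjusted p = 0.000596). Tgfbr1 had 9.13 and 8.98 in R848 cells, against 10.05 and 9.86 in untreated cells (-0.90 ± 0.13 SE, adjusted p = 0.000444). They were the only called members among 23 TGF-β, SMAD and lineage factor genes, whose median was -0.06. Fcgr1, the high-affinity IgG receptor and 1 of the macrophage markers, was named after its value was seen: 7.12 and 6.88 in R848 cells, against 8.14 and 7.83 in untreated cells (-0.99 ± 0.20 SE, adjusted p = 0.00692). The other 9 macrophage markers did not pass the test, with differences from -0.22 (Cd68) to 0.86 (Spi1).

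DNA replication and cell division genes had the lowest median of the 18 lists, -0.35, with 6 of 45 members called lower and 1 higher. In bulk samples, fewer cells of a kind and less RNA per cell cannot be told apart. Cdc6, which loads the replicative helicase, had 7.78 and 7.75 in R848 cells, against 8.50 and 8.45 in untreated cells (-0.71 ± 0.12 SE, adjusted p = 0.00134), and Cdk2, the kinase of S phase entry, fell by 0.54. The rise was Plk2, a stress-responsive polo-like kinase gene (1.26 ± 0.16). Over 1, 2 and 4 h the median of the list ran -0.16, -0.35 and -0.47, each time against its own untreated arrays.

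Of 20 G protein-coupled receptor and RGS genes, 4 were called higher and 2 lower (median 0.08), with Gpr84, a medium-chain fatty acid receptor, rising by 1.86 ± 0.19. Of 14 arrestin-domain and nutrient-stress genes, 4 were called lower and none higher (median -0.14). Ribosome biogenesis (28 genes, 1 higher), sterol and lipid metabolism (22 genes, 1 lower) and glycolysis (20 genes, 1 higher and 1 lower) had medians of 0.07, -0.01 and -0.07.

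The response at 2 h was then set against the R848 response at 1 h and at 4 h, each taken against the untreated arrays of its own time. The difference between responses was itself tested. Relative to 1 h, the response at 2 h was higher for 35 genes (0.406%) and lower for 43 (0.499%). Relative to 4 h, it was higher for 13 genes (0.151%) and lower for 76 (0.881%). Unadjusted p was under 0.05 for 705 and 683 genes. All counts rested on single arrays: with each array left out in turn they ran from 14 to 31 and 23 to 36 against 1 h, and from 4 to 15 and 31 to 66 against 4 h, the lowest values being reached without untreated replicate A of the other time, with the same lowest count also reached without R848 replicate A of 2 h (14 above 1 h) and without untreated replicate B of 2 h (23 below 1 h). With median scaling the counts were 1 and 12 against 1 h and 0 and 28 against 4 h, and with only the arrays compared 3 and 8, and 0 and 6.

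Egr1, an immediate-early zinc finger factor, was high at 1 h and at 4 h but not at 2 h. Its signals in R848 cells were 12.87 and 13.12 after 1 h, 9.14 and 9.30 after 2 h, and 12.05 and 11.59 after 4 h. In untreated cells they were 9.25 and 9.86, 9.13 and 9.50, and 9.46 and 9.52 at the same times. The response was thus 3.44, -0.10 and 2.33, and the 2 h value differed from both neighbours (-3.54 ± 0.27 SE, adjusted p = 4.19e-06 against 1 h; -2.43 ± 0.27, adjusted p = 0.000454 against 4 h).

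Several other genes had a 2 h response below both neighbours. The response of Cxcl2 was 4.72, 2.85 and 5.68 at 1, 2 and 4 h, and that of Ppp1r15a, a phosphatase subunit that restores translation after stress, was 2.39, 0.15 and 1.28. Zfp36 followed the same order with 2.53, 0.72 and 2.65, both differences passing the test (adjusted p = 0.00679 and 0.00381). Named after their values were seen, the cytokine gene Osm (2.71, 1.28 and 2.76), the lipid droplet gene Hilpda (1.96, 0.78 and 2.15) and Jun (0.70, -0.53 and 0.57) also passed in both. Jun was at background on R848 replicate A of 2 h, so the size of its 2 h value is uncertain.

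The Zfp36 promoter is shown because it holds a match to the CArG box, the sequence bound by serum response factor at immediate-early genes (capitals; chr7:28379229-28379478, minus strand, GRCm38.p6, RefSeq).
Zfp36: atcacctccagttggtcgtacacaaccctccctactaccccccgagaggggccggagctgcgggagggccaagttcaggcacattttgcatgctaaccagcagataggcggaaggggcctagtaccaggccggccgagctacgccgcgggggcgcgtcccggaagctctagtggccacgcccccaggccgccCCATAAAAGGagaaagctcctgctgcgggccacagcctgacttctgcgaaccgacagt
The match lies 49 to 58 bases before the start, and 1.47% of all promoter windows searched hold one on either strand. No window of Egr1 was searched. Among called rises it was 4 of 217 (1.84%), against 3 of 222 called falls (1.35%) and 83 of 6577 genes tested (1.26%).

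Other immediate-early genes had a 2 h response below that of 1 h. Errfi1, a feedback inhibitor of EGF receptor signalling, had 12.91 and 12.89 in R848 cells of 1 h, 9.50 and 9.18 in those of 2 h and 9.96 and 9.80 in those of 4 h. Its response was 4.84, 1.34 and 1.70, with a difference of 2 h minus 1 h of -3.51 ± 0.16 SE (adjusted p = 6.09e-09). Egr2 (3.35, 0.72 and 0.52) and Dusp1 (3.04, 0.87 and 0.77) also had a lower response at 2 h than at 1 h, and the calls for all 3 differences from 1 h held without any 1 array. Nfkbiz too was further up at 1 h, with a response of 5.16, 3.74 and 3.88 (2 h against 1 h, adjusted p = 0.000683).

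A smaller set was induced between 1 and 2 h. Hcar2, the hydroxycarboxylic acid receptor that binds niacin, had 7.78 and 7.64 in R848 cells of 1 h, 9.33 and 9.33 in those of 2 h and 9.87 and 10.19 in those of 4 h. Its response was 0.50, 2.29 and 2.79 (2 h against 1 h, 1.79 ± 0.20 SE, adjusted p = 0.000271). AI850995 (0.29, 2.37 and 1.42), the acyltransferase gene Agpat4 (0.36, 1.71 and 1.74), the TNF receptor gene Tnfrsf1b (0.38, 1.70 and 2.51) and the antiviral GTPase gene Mx2 (-0.08, 1.36 and 1.98) were also called higher at 2 h than at 1 h.

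**Figure D4:**
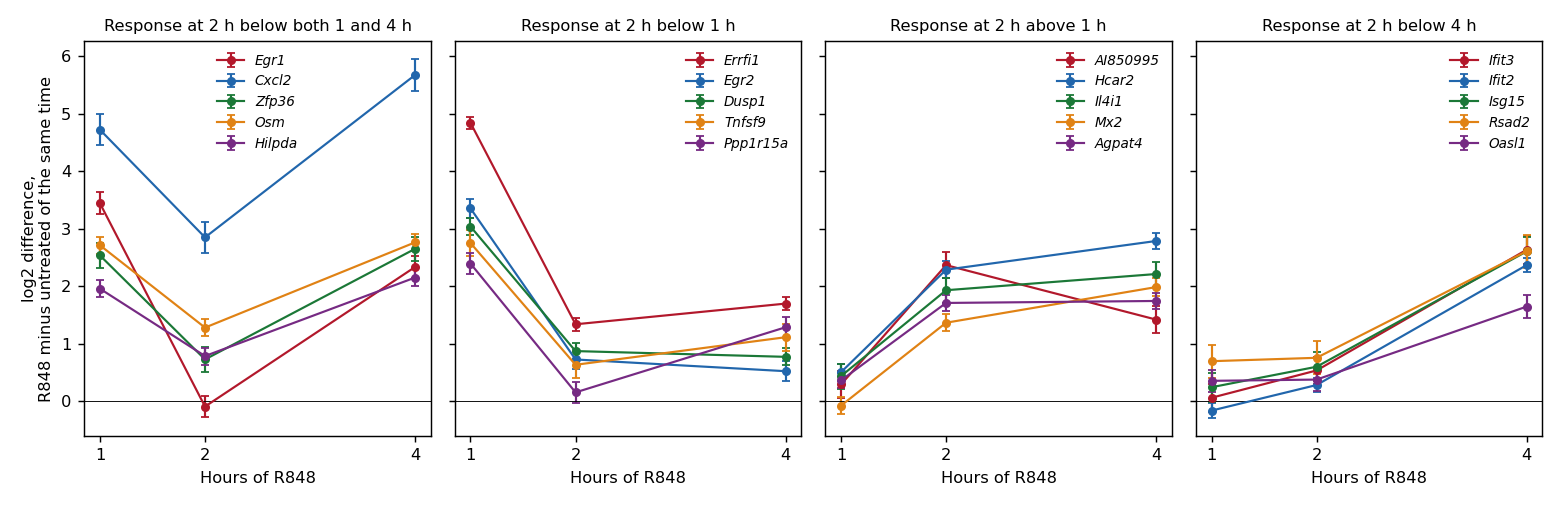
R848 response (y axis, log2, R848 minus untreated of the same time, bars 1 SE) at 1, 2 and 4 h (x axis, hours) for 5 genes in each of 4 panels, grouped by how the 2 h response differed from its neighbours. Egr1 is at -0.10 at 2 h between 3.44 and 2.33, and the interferon-stimulated genes of the right panel pass 1.6 only at 4 h; Ppp1r15a in the second panel also lies below its 4 h value.

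Of 43 tested interferon-stimulated genes, 5 were called higher at 2 h, beside 3.34% of all genes (Mx2, Slfn2, Daxx, Gbp3 and Irf7, the last chosen after its value was seen) and none lower, and over the 3 times (1, 2 and 4 h) the list median ran -0.02, 0.17 and 0.85. For 17 of the 43 the response at 2 h was below that at 4 h. Ifit2, which binds foreign RNA, had 7.53 and 7.71 in R848 cells of 2 h and 9.83 and 9.85 at 4 h, with a response of 0.28 at 2 h and 2.37 at 4 h (-2.09 ± 0.18 SE, adjusted p = 2.08e-05). Isg15, a ubiquitin-like modifier, had a response of 0.60 at 2 h and 2.61 at 4 h (adjusted p = 0.00904), a call lost without untreated replicate A of 4 h, R848 replicate A of 2 h or R848 replicate B of 4 h. The 2 h calls for Slfn2, Daxx and Gbp3 were lost when single arrays were left out, and Irf7 passed at an adjusted p of 0.045.

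Few genes were called between R848 and P3C, each given at 1 μM for 2 h. Whether these doses of the 2 ligands are equally strong was not tested. Of 8622 genes, 2 (0.0232%) were higher in R848 than in P3C cells and 0 (0%) lower, with 155 at an unadjusted p under 0.05. A difference under 0.5 was found in 99.8% of genes, but only 567 of the 8622 were called between R848 and untreated cells. That share therefore does not measure how alike the responses to the 2 ligands were. The 2 called genes were the interleukin-1 genes. Il1b had 11.28 and 11.21 in R848 cells, against 10.04 and 9.94 in P3C cells (1.26 ± 0.18 SE, 95% interval 0.87 to 1.64, adjusted p = 0.021). Il1a had 8.62 and 8.78 in R848 cells, against 7.58 and 7.85 in P3C cells (0.98 ± 0.13 SE, 95% interval 0.70 to 1.27, adjusted p = 0.021).

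R848 and P3C arrays of each replicate lay on 1 slide, and within slides the differences were 1.24 and 1.27 for Il1b and 1.04 and 0.93 for Il1a. The calls did not hold with single arrays left out: that for Il1b was lost without any 1 of the 4 arrays, and that for Il1a without P3C replicate A or either R848 array. When slides entered the model as random blocks, 9 genes were called higher and 0 lower, with 818 at an unadjusted p under 0.05. By contrast, limma called 0 either way under median scaling (97 at an unadjusted p under 0.05) and with only the 4 arrays compared (39). For genes not called, the interval of the difference from P3C was -0.43 to 0.42 for Tnf, -0.28 to 0.24 for Nfkbia and -0.35 to 0.26 for Ccl4. Other uncalled genes had intervals that left out 0, above it for Ccl5 (0.55 to 1.38) and Cd40 (0.18 to 0.85). They lay below 0 for Lhfpl2 (-0.44 to -0.11) and Midn (-0.46 to -0.07). Within slides, Ccl5 stood 0.90 and 1.02 above P3C. The intervals are not adjusted for the number of genes, and a gene not called is not shown to be equal.

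Against LPS the R848 response was weaker for many genes. The doses, 1 μM of R848 and 100 ng/ml of LPS, are not matched. Of 8622 genes, 95 (1.1%) were lower and 8 (0.0928%) higher in R848 than in LPS cells, with 565 at an unadjusted p under 0.05. Of the 95, 43 had risen over untreated in R848 cells, 3 had fallen and 49 were not called against untreated. Without R848 replicate A the counts were 58 and 5, without LPS replicate B 62 and 4, and without LPS replicate A 78 and 5. When slides entered the model as random blocks, the counts were 169 and 64, with 1024 at an unadjusted p under 0.05. Median scaling left 57 and 0, and limma on only the 4 arrays compared called 0 either way, with 229 at an unadjusted p under 0.05.

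Most of the genes furthest below LPS are known to respond to interferon. Cxcl10 had 8.73 and 9.22 in R848 cells, against 12.58 and 13.04 in LPS cells (-3.83 ± 0.25 SE, adjusted p = 4.86e-07). Rsad2, which codes for the antiviral enzyme viperin, had 9.04 and 9.87 in R848 cells, against 12.22 and 12.68 in LPS cells (-2.997 ± 0.28 SE, adjusted p = 1.39e-05). Oasl1 (-2.81), Ccl5 (-2.66), the phosphatase gene Dusp1 (-2.42) and the transcription factor gene Irf1 (-2.26) followed. In the interferon-stimulated list, 18 of 43 members were lower in R848 than in LPS cells and none higher. Ifnb1, the gene of interferon-β, was named after its value was seen: 6.96 and 7.01 in R848 cells, against 8.41 and 8.86 in LPS cells.

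Promoters of 2 of these interferon-responsive genes are shown with matches to the interferon-stimulated response element, searched on both strands as TTTC, any 2 bases and TTTC (capitals; RefSeq, GRCm38.p6). The windows are Cxcl10 at chr5:92348890-92349139 and Isg15 at chr4:156200819-156201068, both on the minus strand.
Cxcl10: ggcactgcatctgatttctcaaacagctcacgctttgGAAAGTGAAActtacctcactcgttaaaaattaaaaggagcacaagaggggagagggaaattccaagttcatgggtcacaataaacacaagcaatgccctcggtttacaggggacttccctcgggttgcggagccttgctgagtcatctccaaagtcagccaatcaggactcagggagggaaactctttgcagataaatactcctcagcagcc
Isg15: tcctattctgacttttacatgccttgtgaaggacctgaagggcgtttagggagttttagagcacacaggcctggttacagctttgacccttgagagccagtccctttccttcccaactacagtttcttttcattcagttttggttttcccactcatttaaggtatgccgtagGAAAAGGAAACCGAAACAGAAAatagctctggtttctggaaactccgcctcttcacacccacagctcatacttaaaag
The match of Cxcl10 lies 204 to 213 bases before the start and the 3 overlapping matches of Isg15 lie 57 to 78 bases before it. Such a match is in 2.98% of all windows searched and in 232 of 6577 genes tested (3.53%). It is in 10 of 217 called rises (4.61%) and in 8 of 222 called falls (3.6%). These calls are against untreated cells, where Isg15 was not called, and no share was taken over the genes below LPS. The Cxcl10 window also holds 2 matches to the κB consensus, which are not marked.

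Of the 17 NF-κB genes, 3 were lower in R848 than in LPS cells and none higher, with a median difference of -0.30. Tnf had 12.46 and 12.19 in R848 cells, against 13.88 and 13.79 in LPS cells (-1.51 ± 0.20 SE, adjusted p = 0.000359), and Nfkbiz was lower by 0.57 (adjusted p = 0.038). Ccl4 did not pass the test (-0.01, 95% interval -0.32 to 0.29), nor did Traf1 (-0.41, 95% interval -0.78 to -0.04). Tnfaip3, the A20 gene, stood at -1.89 ± 0.14, the ubiquitin ligase gene Peli1 at -2.19 ± 0.26, Cxcl2 at -1.71, Il1a at -1.54 and Il1b at -1.25, all called lower than in LPS cells.

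The 8 genes higher in R848 than in LPS cells were mostly ones lower in R848 than in untreated cells. Lhfpl2, a tetraspan membrane protein gene, had 8.92 and 8.94 in R848 cells, 7.92 and 7.78 in LPS cells and 10.12 and 10.06 in untreated cells (R848 minus LPS 1.08 ± 0.08 SE, adjusted p = 7.46e-07). Of the 8, 6 were called lower in R848 than in untreated cells. The deubiquitinase gene Usp2 stood 0.61 above LPS, and Gadd45g, a stress-response gene not called against untreated (0.48), stood 1.00 above it, a call lost without either LPS array or R848 replicate B.

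**Figure D5:**
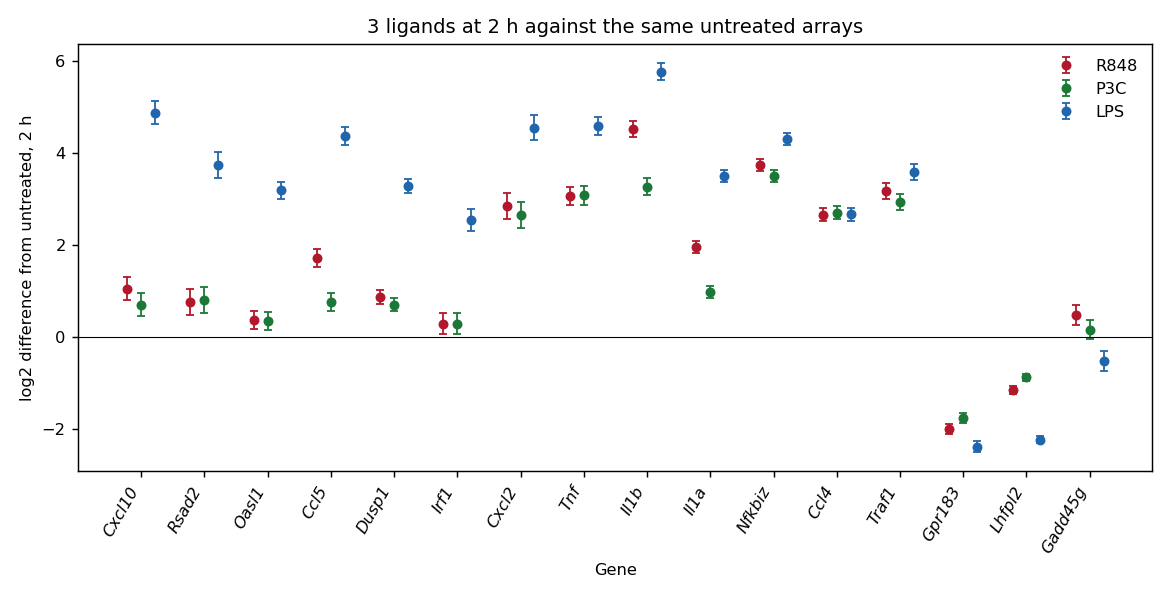
Difference from the same 2 untreated arrays at 2 h (y axis, log2, bars 1 SE) for R848 (red), P3C (green) and LPS (blue) in 16 genes (x axis). Cxcl10, Rsad2 and Oasl1 lie far below LPS for both R848 and P3C, whereas the 3 values of Ccl4 lie within each other's error bars and Il1b and Il1a lie higher for R848 than for P3C.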

How the data were processed

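Total RNA of 24 RAW264.7 cultures (12 groups of ligand and time, replicates A and B) was labelled with biotin and hybridised to Illumina mouse BeadChips. The authors deposited, for each array, the mean bead intensity of 45281 probes with a detection p-value, exported with GenomeStudio 2011.1 per the labels, and a table that they had log2-transformed and quantile-normalized. The methods describe no test for the arrays. Here the deposited intensity of the 24 arrays was put through the same 2 steps, log2 and quantile normalization, which matched 99.9993% of the values of the deposited log2 table within 0.001. Probes were retained where both replicates of some group had a detection p-value under 0.01 (14119), named through RefSeq by gene ID or accession (12540), and reduced to the brightest probe a gene (8622 genes). Values are therefore those of 1 probe. Of the genes called against untreated at 2 h, 218 had another detected probe. In 87 of these all other probes were called the same way, and in 1 another probe was called the opposite way. Differences were tested in R 4.3.3 with limma 3.58.1 (lmFit and eBayes on group means over all 24 arrays, Benjamini-Hochberg over all genes, called at adjusted p under 0.05), after the script was tested on simulated data. Intervals are 95% intervals from the same model.

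Members and gene lists were chosen with earlier results of these data known. Named genes were the 12 largest rises and falls, up to 4 called members of each list, all tested members of the TLR7 and NF-κB lists, the 6 largest differences each way in each other comparison, and 15 genes the study names. Motifs were searched in the 250 bases before each start in RefSeq's GRCm38.p6 promoter table. The chromosome that carries Egr1 was left out of this search, so the shares do not cover its genes. Alternatives were other background corrections, scalings, filters, probe choices, blocks and sample sets, and leaving out each array. A median of 41 to 42 beads a probe gave bead standard errors of 2.6 to 2.9% of the signal, so the number of arrays limits the precision.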

Additional observations from a re-analysis of the deposited data

Results flagged for a closer look

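The response to R848 at 2 h differed from that at 1 h, by a test of the difference between times, for 35 genes upward and 43 downward, and from that at 4 h for 13 upward and 76 downward. Upward from 1 h, the differences were 2.08 for AI850995, 1.79 for Hcar2, 1.495 for Il4i1, an amino acid oxidase gene, 1.44 for Mx2, 1.35 for Agpat4 and 1.32 for Tnfrsf1b. Downward from 1 h they were -3.54 for Egr1, -3.51 for Errfi1, -2.63 for Egr2, -2.24 for Ppp1r15a, -2.17 for Dusp1 and -2.12 for Tnfsf9, the gene of a T cell costimulatory ligand. The call for Il4i1 was lost without any 1 of the 8 arrays.

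Against 4 h the response was further up by 1.11 for Elk3, an ETS repressor gene, 1.01 for the sialyltransferase gene St6gal1, 0.96 for the calcineurin regulator gene Rcan1, 0.88 for Noct, 0.84 for Havcr2, the TIM-3 gene, and 0.83 for Bcl2l11. It was further down by -2.83 for Cxcl2, -2.43 for Egr1, -2.10 for Ifit3, -2.09 for Ifit2, -2.01 for Isg15 and -1.93 for Zfp36. The calls for Bcl2l11, Havcr2, St6gal1 and Isg15 were each lost when at least 1 array was left out.

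Probes that could be given no gene name were outside the comparisons of genes. Of 1579 such probes above background, 27 were called higher and 46 lower in R848 than in untreated cells at 2 h. Neither share exceeds that of the 8622 genes tested, 3.34% higher and 3.24% lower.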

How the results depend on the processing

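No called named gene changed sign against untreated under any of 16 alternatives, but of 104 called ones 31 kept the call under all and 73 lost it under at least 1, and 13 named genes that were not called gained a call under at least 1, Tnfaip3 and Zfp36 among them. With median scaling in place of quantile normalization, which moves the median of all genes to -0.12, the calls were 42 higher and 52 lower, list members called 30 higher and 7 lower, P3C 0 higher, LPS 0 higher and 57 lower, 1 h 1 and 12, and 4 h 0 and 28. With only the arrays compared, which leaves fewer samples to estimate the spread, they were 57 higher and 8 lower (87.7% of calls higher, 50.8% otherwise), P3C 0 higher, LPS 0 and 0, 1 h 3 and 8, and 4 h 0 and 6. With the untreated arrays of all times pooled there were 469 higher and 638 lower (42.4% higher). Background correction with neqc gave 22 genes above 4 h. The slide as a random block gave 407 genes higher and 414 lower against untreated, 9 above P3C, and 64 above and 169 below LPS. The cause of these shifts was not tested. Leaving out each array in turn gave 202 to 339 higher and 144 to 309 lower against untreated, 0 to 1 and 0 to 4 against P3C, 4 to 10 and 58 to 108 against LPS, 14 to 31 and 23 to 36 against 1 h, and 4 to 15 and 31 to 66 against 4 h. The deposited normalized table gave the same 567 calls. Whether replicate letters pair the samples is unsettled, and they were not used as pairs: deviations of the same letter correlated at 0.39 between R848 and untreated arrays of 2 h, and at -0.65 to 0.85 over 66 pairs of groups, 38 of them above 0.1. With the replicate block there were 314 higher and 333 lower, and 16 genes above LPS. Dim genes have only bounds: 33 called rises were at background on both untreated arrays and 18 called falls on both R848 arrays.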
